A study of Mus musculus with 6 samples.

Results

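The miRNAs of the miR-99/100 and miR-125 families were followed in liver. The 9 mature miRNAs were chosen by name, and all 9 were found among the 1039 miRNAs of the table. They are the 5p arms mmu-miR-99a-5p, mmu-miR-99b-5p, mmu-miR-100-5p, mmu-miR-125a-5p and mmu-miR-125b-5p, the 3p arms of miR-99b and miR-125a, and mmu-miR-125b-2-3p together with its rarer counterpart mmu-miR-125b-1-3p. Small RNA was sequenced from the livers of wild type ICR mice, an outbred stock, at 30 weeks of age, with 1 library per mouse. All mice of both groups ate a high-fat diet from the start. After 12 weeks the J group (n = 3) was given JTXK granule, a Chinese herbal compound, by gavage for 8 weeks, and the M group (n = 3) was given sterile water in the same way. The comparison asks whether JTXK granule changes the liver miRNA profile of these diabetic mice. Mice on a standard diet were not analysed here.

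The values are RPM, the reads of a miRNA scaled so that each library sums to 1000000. The libraries held 2805177 to 4314134 miRNA reads in the J group and 2626353 to 4295665 in the M group, and 3 reads corresponded to 0.695 to 1.14 RPM. M group replicate 1 stood apart, with 31 miRNAs at least 4-fold above every other library (other libraries below 1 RPM were set to 1), against 0 to 3 in each of the other libraries. The 4 hepatocyte miRNAs checked, led by miR-122, summed to 391439 to 450361 RPM, while 5 miRNAs of neurons and muscle summed to 3.91 to 25.5 RPM. In whole liver, fewer cells of a type and less RNA per cell cannot be told apart.

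Each miRNA precursor folds into a hairpin whose 5′ and 3′ arms can both give a mature miRNA, and the seed, near the 5′ end of the mature miRNA, selects the target mRNAs. miR-125 is the mammalian relative of lin-4, the first miRNA described, and Lin28 is a known target of it. miR-99 and miR-100 are known to target mTOR and IGF1R, components of insulin and growth factor signaling. In the genome the families sit beside let-7 in clusters that each hold a miR-99/100 gene, a let-7 gene and a miR-125 gene, and Lin28 protein blocks the maturation of let-7.

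The mature sequences show which miRNAs could act on the same targets and which could be confused with each other. They are RefSeq sequences (GRCm38.p6), written 5′ to 3′, and capitals mark the seed, bases 2 to 8. Sequences were found for all 9 miRNAs. The 5p arms of miR-99/100 share the seed ACCCGUA:
mmu-miR-99a-5p: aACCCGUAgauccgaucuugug
mmu-miR-100-5p: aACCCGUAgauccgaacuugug
mmu-miR-99b-5p: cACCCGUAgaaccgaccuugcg
Counted from the 5′ end, miR-99a-5p and miR-100-5p differ by the single substitution U16A. miR-99b-5p differs from miR-99a-5p by A1C, U11A, U16C and U21C. How the authors shared out reads between such near-identical miRNAs is not given in the sources used here, so the split between miR-99a-5p and miR-100-5p is uncertain. The table's name for miR-100-5p also carries a C-to-T tag, and 28 mouse names in the table carry such a base change, and the sources do not explain the tags.

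The 5p arms of miR-125 share the seed CCCUGAG, and their first 13 bases are the same. The miRNA miR-351-5p, from chromosome X, holds this seed as well:
mmu-miR-125a-5p: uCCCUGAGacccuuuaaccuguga
mmu-miR-125b-5p: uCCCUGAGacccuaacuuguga
mmu-miR-351-5p: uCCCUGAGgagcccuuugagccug
The 3p arms of miR-125 do not share a seed, and the 3p arm tells the precursors of miR-125b apart, which the common 5p arm cannot:
mmu-miR-125a-3p: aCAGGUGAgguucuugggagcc
mmu-miR-125b-1-3p: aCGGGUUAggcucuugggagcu
mmu-miR-125b-2-3p: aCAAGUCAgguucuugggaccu
The 3p arms of miR-99a and miR-99b share the seed AAGCUCG:
mmu-miR-99b-3p: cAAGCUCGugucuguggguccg
mmu-miR-99a-3p: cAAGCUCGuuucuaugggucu

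The genes lie in 3 clusters, all on the + strand of GRCm38. The table itself gives no positions. Mir99a (chr16:77598936-77599000), Mirlet7c-1 and Mir125b-2 (chr16:77646273-77646343), which also overlaps an exon of the transcript C130023A14Rik, lie in introns of the noncoding gene Mir99ahg and span 47408 bp with the sequence between them. Mir100 (chr9:41531425-41531504), Mirlet7a-2 and Mir125b-1 (chr9:41581926-41582002) lie in introns of the noncoding genes 3110039I08Rik and Gm49317 and span 50578 bp, and Mir125b-1 overlaps an exon of the noncoding Gm28119. The cluster on chromosome 17 is the compact one at 692 bp. Mir99b (chr17:17830188-17830257) and Mirlet7e are in an intron of the protein-coding gene Spaca6, and Mir125a (chr17:17830812-17830879) overlaps an annotated exon of it. miR-99b-5p, let-7e-5p and miR-125a-5p therefore each have a single source gene. miR-125b-5p comes from both chromosome 9 and chromosome 16, and let-7a-5p and let-7c-5p also come from genes outside these clusters.

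The levels of the 9 miRNAs ranged from 1.62 to 93349 RPM. Together they took 10.1% to 11.8% of all reads. miR-99a-5p stood highest with a mean of 86008 ± 5672 RPM (SD over 6 libraries), and took 79.9% to 84.1% of the reads of the 3 miR-99/100 5p arms. miR-99b-5p followed with 10525 ± 1593 RPM and miR-100-5p with 8449 ± 1419 RPM. The ranges of these overlapped, although miR-99b-5p was the higher in 6 of 6 libraries. miR-125b-5p (2003 ± 557 RPM) and miR-125a-5p (647 ± 138 RPM) were lower, and each range lay wholly below that of the miRNA above it. Of the 3p arms only miR-125b-2-3p was well covered, with 175 ± 12.3 RPM and 442 to 783 reads. miR-125b-1-3p (4.99 ± 0.417 RPM), miR-99b-3p (4.73 ± 1.69 RPM) and miR-125a-3p (2.75 ± 0.882 RPM) rested on 7 to 30 reads per library. The range of miR-99b-3p overlapped those of both others, while miR-125b-1-3p lay above miR-125a-3p in every library. RPM are shares of reads, so an order of levels between miRNAs is an order of reads, not of molecules.

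**Figure D1:**
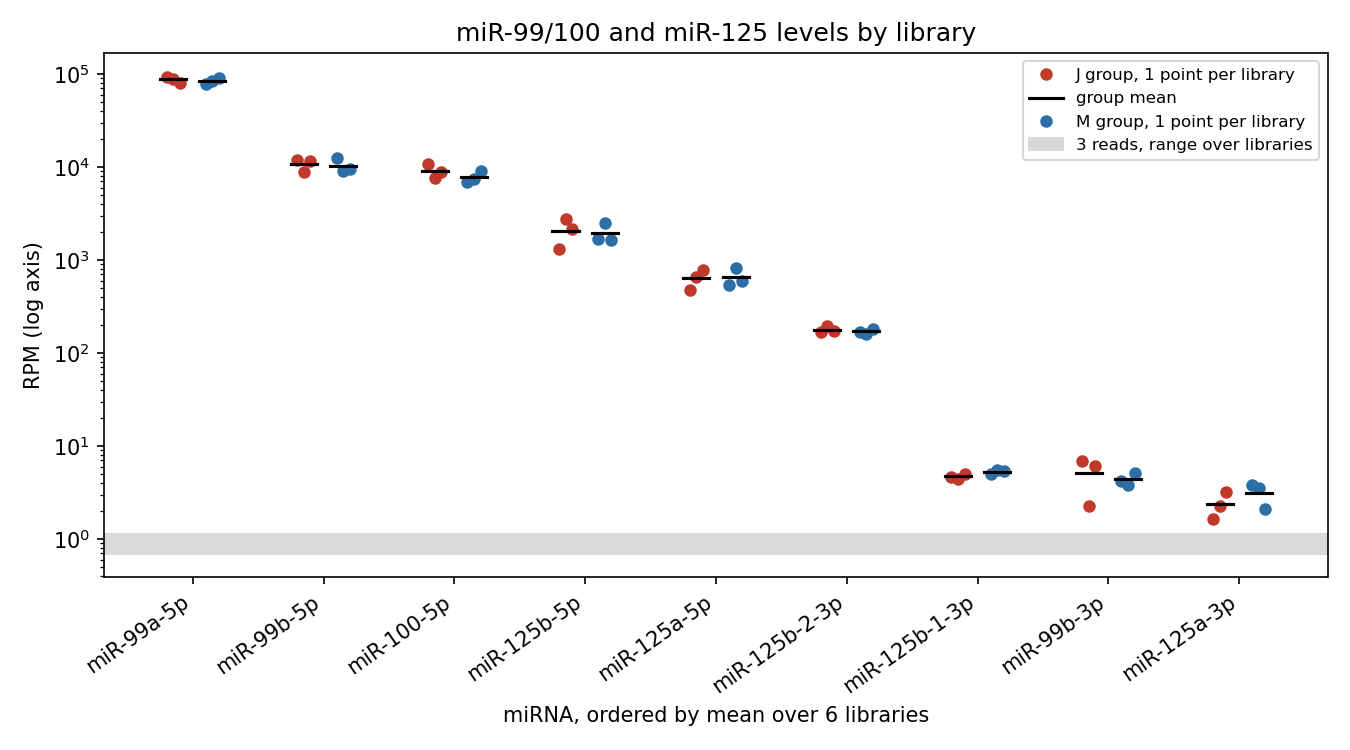
RPM of the 9 miRNAs in each library on a log axis, with J group libraries in red, M group libraries in blue, group means as bars, and the level of 3 reads in grey. The J and M points overlap for every miRNA, and the 3 rarest miRNAs lie between 1.62 and 6.95 RPM, close to the grey band.

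None of the 9 miRNAs passed the test for a difference between the groups. All 9 had a mean above 1 RPM in both groups and were tested by limma on log2(RPM + 1), where the study's thresholds, a log2 fold change beyond 0.3 in either direction with an unadjusted p below 0.05, define a call. limma called 0 of the 9, and 0 of the 9 had an unadjusted p under 0.05. edgeR and DESeq2 on whole reads recovered from the RPM also called 0 of the 9. Of all 548 miRNAs tested, 29 were called (5.29%), with 8 (1.46%) higher and 21 (3.83%) lower in the J group. After median-of-ratios scaling the split was 17 higher and 13 lower, and after quantile normalization 20 and 11. None of the 548 had an adjusted p under 0.05 by limma or edgeR (Benjamini-Hochberg), and DESeq2 gave 2. The J and M libraries overlapped for each of the 9 miRNAs, and did not overlap for 74 of the 548 (13.5%), with J above M for 4.20% and J below M for 9.31%. The median log2 fold change of the 9 was 0.05, with 6 above 0 and 3 below, and that of the 548 was -0.13.

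miR-99a-5p had 93349, 87931 and 81012 RPM in J group replicates 1 to 3 and 78911, 83962 and 90883 RPM in M group replicates 1 to 3. The groups interleaved, and all 6 libraries lay within a factor of 1.18. The log2 fold change was 0.05 (standard error 0.11, 95% interval -0.20 to 0.30, adjusted p = 0.88 by limma), an interval from 0.868-fold to 1.23-fold of the M group. The scaling moved the estimate, to 0.15 with median-of-ratios scaling, 0.16 by edgeR, 0.17 by DESeq2 and -0.077 with quantile normalization.

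miR-100-5p had 10761, 7666 and 8844 RPM in J mice and 6864, 7446 and 9113 RPM in M mice. J group replicate 1 was the highest and M group replicate 1 the lowest, with the other 4 libraries mixed. Its log2 fold change of 0.22 (standard error 0.18, 95% interval -0.21 to 0.64, adjusted p = 0.71 by limma) was the largest of the 5 5p arms. It stayed above 0 in all 16 alternatives, without passing the thresholds in any. With a library left out it ran from 0.087 (without J group replicate 1) to 0.33. Its rank did not always hold, since miR-125b-5p was at 0.35 without J group replicate 1. With quantile normalization miR-125b-5p was again the larger, at 0.35 against 0.29.

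miR-99b-5p, the member of this family on chromosome 17, had 11925, 8905 and 11527 RPM in J mice and 12389.8, 8971 and 9429 RPM in M mice. The highest value was in M group replicate 1 and the lowest in J group replicate 2, and the groups overlapped. The log2 fold change was 0.07 (95% interval -0.36 to 0.51). Summed over the 3 miRNAs that carry the seed ACCCGUA, the level was 107307 ± 7718 RPM in J mice and 102657 ± 5965 RPM in M mice (SD, n = 3, exact two-sided permutation test p = 0.5, where 3 against 3 cannot go below 0.1).

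miR-125b-5p had 1306, 2729.7 and 2149 RPM in J mice and 1679, 2525 and 1631 RPM in M mice. J group replicate 2 and M group replicate 2 were high and J group replicate 1 was low, so each group held both high and low livers. The log2 fold change was 0.05 (standard error 0.31, 95% interval -0.68 to 0.78, adjusted p = 0.97 by limma). That interval reaches from 0.624-fold to 1.72-fold of the M group.

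miR-125a-5p had 472, 663 and 789.6 RPM in J mice and 542, 822 and 595 RPM in M mice. Again the lowest and the second highest values were both J libraries. Its log2 fold change was -0.03 (95% interval -0.66 to 0.59), and it lay above 0 after median-of-ratios scaling (0.072), after quantile normalization (0.27), by edgeR (0.053) and by DESeq2 (0.057). The sum of the miR-125 5p arms was 2703 ± 833 RPM in J mice and 2598 ± 649 RPM in M mice (SD, n = 3, exact two-sided permutation test p = 0.9).

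**Figure D2:**
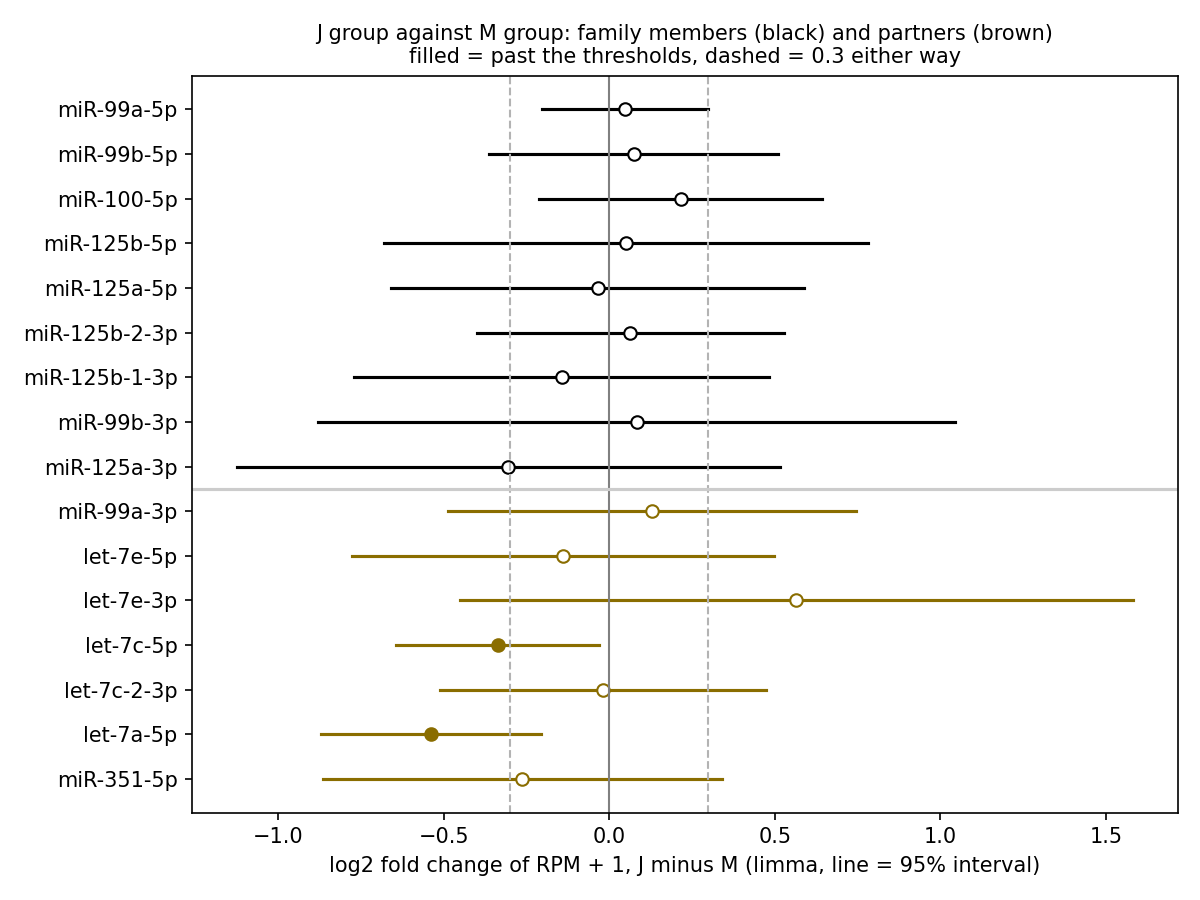
Log2 fold change of RPM + 1 of the J group against the M group by limma, with 95% intervals, for the 9 miRNAs (black) and 7 partner miRNAs (brown); filled points passed the thresholds and dashed lines mark 0.3 in either direction. All 9 intervals of the families include 0, and let-7c-5p (-0.34) and let-7a-5p (-0.54) are the filled points.

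The 3p arms overlapped between the groups as well. miR-125b-2-3p had 170, 196 and 171 RPM in J mice and 168, 162 and 182 RPM in M mice, a log2 fold change of 0.06 (95% interval -0.40 to 0.53). miR-125b-1-3p, the 3p arm of the chromosome 9 precursor, had 14 to 20 reads in J mice and 13 to 23 in M mice. Its highest J library, at 4.99 RPM, and its lowest M library, at 4.95 RPM, were nearly level, and the 95% Wilson intervals of those libraries, 2.97 to 8.38 and 2.89 to 8.47 RPM, overlapped almost wholly. miR-99b-3p ranged from 2.23 RPM (8 reads) to 6.95 RPM (30 reads), both in the J group. miR-125a-3p had 7 to 9 reads in J mice and 9 to 12 in M mice, and its log2 fold change of -0.30 had a 95% interval from -1.12 to 0.52. These Wilson intervals cover counting error only, since PCR copies were not told apart.

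The 5p arms varied from liver to liver to different extents, which was not tested. Between the lowest and the highest library, miR-99a-5p changed 1.18-fold, miR-99b-5p 1.39-fold, miR-100-5p 1.57-fold, miR-125a-5p 1.74-fold and miR-125b-5p 2.09-fold. The 3p arms did not follow this order, with 1.21-fold for miR-125b-2-3p, 1.25-fold for miR-125b-1-3p, 2.35-fold for miR-125a-3p (7 to 12 reads) and 3.11-fold for miR-99b-3p (8 to 30 reads). miR-125b-5p had at least 4409 reads in each library, and the 95% Wilson intervals of its lowest (1273 to 1341 RPM) and highest library (2676 to 2784 RPM) lay far apart. miR-125a-5p and miR-125b-5p were both lowest in J group replicate 1, by 0.43 and 0.57 below their means on the log2 scale, and both were above their means in J group replicates 2 and 3 and M group replicate 2. In J group replicate 1 the miR-99/100 5p arms were above their means, by 0.12 for miR-99a-5p, 0.19 for miR-99b-5p and 0.37 for miR-100-5p. The median-of-ratios size factor of this library was 0.864, against 0.981 to 1.06 in the others, so a typical miRNA reads low there in RPM. How much of the miR-125 deviations goes with this shift was not tested. The ratio of the summed miR-99/100 to the summed miR-125 5p arms was 65.2, 30.8 and 34.5 in J mice and 44.2, 30.0 and 49.1 in M mice. The ratio varied 2.18-fold between livers, and the groups overlapped (log2 difference 0.03, exact two-sided permutation test p = 0.9). The difference was -0.30 without J group replicate 1, -0.18 without M group replicate 2 and -0.35 after quantile normalization, so its direction is not settled. The endothelial miRNA miR-126a-3p (1 of the 2 listed endothelial miRNAs was measured) was likewise lowest in J group replicate 1 (4166 RPM) and highest in J group replicate 2 (6718 RPM), but stood at 4486 RPM in M group replicate 2, where miR-125b-5p was high. The hepatocyte miRNA miR-122-5p was also lowest in J group replicate 1 (208683 RPM), and it was highest in M group replicate 2 (262490 RPM). Some miRNAs of other cell types were lowest in J group replicate 1 too, such as miR-142a-5p (525 RPM), and others, such as miR-143-3p, were not. The part of these cell types in the spread was not tested.

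**Figure D3:**
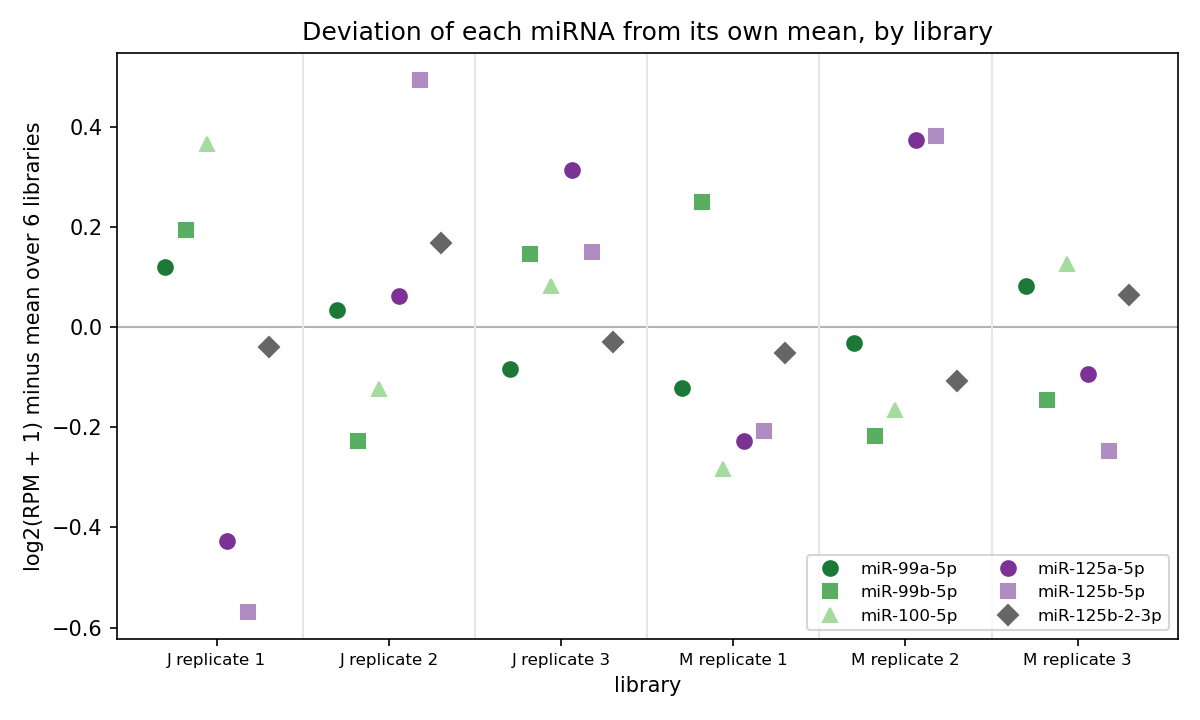
Deviation of log2(RPM + 1) from its mean over the 6 libraries for the 5 5p arms and miR-125b-2-3p, 1 point per library. In J group replicate 1 the purple miR-125 points are lowest (-0.43 and -0.57) and all green miR-99/100 points are above 0, while the grey miR-125b-2-3p points stay between -0.11 and 0.17. That library also had the lowest median-of-ratios size factor (0.864), which these RPM values do not correct for.

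Arms of the same hairpin were also compared within each library, where the scaling of the library cancels out. The 5p arm prevailed in every hairpin that could be compared. The ratio of 5p to 3p reads was 3795 to 4820 for miR-99a, 1715 to 3988 for miR-99b, 142.4 to 297 for miR-125a and 7.49 to 15.1 for miR-125b, whose 3p arms of both precursors were summed. miR-125b-5p varied 2.09-fold between libraries and its main 3p arm, miR-125b-2-3p, 1.21-fold. The arm ratio of miR-125b was 7.49, 13.6 and 12.2 in J mice and 9.69, 15.1 and 8.69 in M mice, and the groups overlapped (log2 difference -0.0083, exact two-sided permutation test p = 1). The groups also overlapped in the arm ratios of miR-99a, miR-99b and miR-125a (exact two-sided permutation tests, p = 0.4, 1 and 0.5). Since 3 against 3 cannot give a p below 0.1, these tests could not have passed 0.05.

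The 3p reads of the miR-125b precursors were compared as well, although reads of different sequences are not a measure of the precursors themselves. miR-125b-2-3p, from chromosome 16, made up 96.7% to 97.8% of the miR-125b 3p reads in each library, and exceeded miR-125b-1-3p by 36.6, 43.9 and 34.2 times in J mice and 34.0, 29.1 and 34.0 times in M mice. The lowest J value lay just above the highest M value (34.2 against 34.0 times), but with 1 RPM added to both miRNAs, as in the test, the groups overlapped (log2 difference 0.21, exact two-sided permutation test p = 0.2). The ratio rests on 13 to 23 reads of miR-125b-1-3p. The 5p arms of the partner genes had another balance, since miR-99a-5p of chromosome 16 exceeded miR-100-5p of chromosome 9 by 8.67 to 11.5 times. That ratio was 9.77 ± 1.49 in the J group and 10.9 ± 0.823 in the M group (SD, n = 3, exact two-sided permutation test p = 0.3).

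let-7c-5p and let-7a-5p, which the clusters on chromosomes 16 and 9 share with other genes, were lower in the J group at the study's thresholds, though not after adjustment. The 3p arm of the let-7c gene in the cluster, let-7c-1-3p, had 1 to 4 reads per library and was not tested, so the reads do not show which gene the 5p arms came from. let-7c-5p had 5589.8, 5755 and 5645 RPM in J mice and 6630.1, 7692 and 7176 RPM in M mice, and limma called it (log2 fold change -0.34, adjusted p = 0.71). let-7a-5p had 7862, 6804 and 7316 RPM in J mice and 10551, 11844 and 9585 RPM in M mice, and was called as well (log2 fold change -0.54, adjusted p = 0.43). For both, no J value reached the lowest M value, and both stayed below 0 in all 16 alternatives. let-7a-5p passed the thresholds in 14 of them, and missed them by edgeR and DESeq2 (-0.43 by both). let-7c-5p passed in 6 and its call was lost in 10, at -0.23 with median-of-ratios scaling, by edgeR and by DESeq2, at -0.071 with quantile normalization, with no filter, and without any single library other than M group replicate 1 (-0.28 to -0.35). Both miRNAs were picked by the study on these libraries, so their direction is not independent evidence.

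The ratio to the cluster neighbour was then compared within each library. miR-99a-5p exceeded let-7c-5p by 16.7, 15.3 and 14.4 times in J mice and by 11.9, 10.9 and 12.7 times in M mice. Every J ratio was above every M ratio (log2 difference 0.38, two-sided p = 0.1 by exact permutation, the smallest value that 3 against 3 allows). Quantile normalization, which sets the values of each library by rank, brought the difference to -0.0061. miR-100-5p against let-7a-5p was 1.37, 1.13 and 1.21 in J mice and 0.651, 0.629 and 0.951 in M mice. Here too the groups did not overlap, with miR-100-5p the more abundant of the pair in every J library and the less abundant in every M library (log2 difference 0.75, exact two-sided permutation test p = 0.1). Without M group replicate 1 the differences were 0.39 and 0.67.

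With 1 RPM added to both miRNAs, as in the tests, these were 2 of the 16 ratios without overlap, and the Benjamini-Hochberg adjusted p over all 18 sums and ratios was 0.9 to 1. On chromosome 9, the ratio of miR-100-5p to miR-125b-1-3p was 2321, 1716.5 and 1772 in J mice and 1387, 1337 and 1702 in M mice, which do not overlap as they stand but do with 1 RPM added (log2 difference 0.36, exact two-sided permutation test p = 0.2). With 0.1 RPM added, this ratio and that of the miR-125b 3p arms reached p = 0.1 in the same exact test, both on 13 to 23 reads of miR-125b-1-3p. The miRNAs of leukocytes (5 of 5 measured, from miR-142a, miR-223, miR-150 and miR-342) summed to 761 to 1102 RPM in J mice and 1376 to 4778 RPM in M mice, where the highest value was that of M group replicate 1 and the others were 1376 and 1456 RPM. Those of stromal cells (4 of 5 measured) summed to 12582 to 16890 RPM in J mice and 16765 to 25242 RPM in M mice. Of the 5 leukocyte miRNAs, 1 did not overlap between the groups, miR-342-3p (58.6 to 242 RPM against 304 to 665 RPM), and it was called lower in the J group by limma (log2 fold change -1.79). Of the 4 stromal miRNAs, 3 did not overlap and were called lower in the J group by limma. They were miR-145a-5p (log2 fold change -0.46), miR-199a-5p (-0.63) and miR-214-3p (-0.55), while miR-143-3p overlapped (-0.41). The call of miR-214-3p was marginal (95% interval -1.10 to -0.0011). These 3 and miR-342-3p were picked by the study on these libraries, so their direction is not independent evidence. Over all 548 miRNAs, 13.5% did not overlap, 9.31% lay below in J without overlap and 3.83% were called lower. The part of these cells in the ratios was not tested. All 10 miRNAs of the table with the let-7 seed GAGGUAG summed to 44525 to 48406 RPM in J mice against 55876 to 62369 RPM in M mice. The most abundant of them, let-7f-5p, overlapped between the groups (means 16974 and 18799 RPM, log2 fold change -0.15). let-7a-5p, let-7c-5p, let-7d-5p and let-7g-5p were called lower by limma, and the study had picked each of them on these libraries.

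On chromosome 17, where each miRNA has a single source gene, the ratios overlapped between the groups. miR-99b-5p exceeded let-7e-5p by 35.4, 50.3 and 45.0 times in J mice and 49.5, 32.3 and 32.1 times in M mice (exact two-sided permutation test p = 0.4). miR-125a-5p exceeded let-7e-5p by 1.40, 3.75 and 3.09 times in J mice and 2.16, 2.96 and 2.03 times in M mice (p = 0.9, same exact test). miR-99b-5p exceeded miR-125a-5p by 25.3, 13.4 and 14.6 times in J mice and 22.9, 10.9 and 15.8 times in M mice (p = 0.8, same exact test). Although the 3 genes lie within 692 bp, the ratio of miR-125a-5p to let-7e-5p varied 2.67-fold between libraries. The narrowest range among the ratios of cluster partners was that of miR-99a-5p to miR-125b-2-3p on chromosome 16, at 449 to 550, a 1.23-fold range (p = 1, same exact test). Each of these miRNAs varied little by itself (1.18-fold and 1.21-fold), so the narrow range does not show that they moved together. With quantile normalization the log2 difference of this ratio went from -0.016 to -0.41 (p = 0.1, same exact test).

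**Figure D4:**
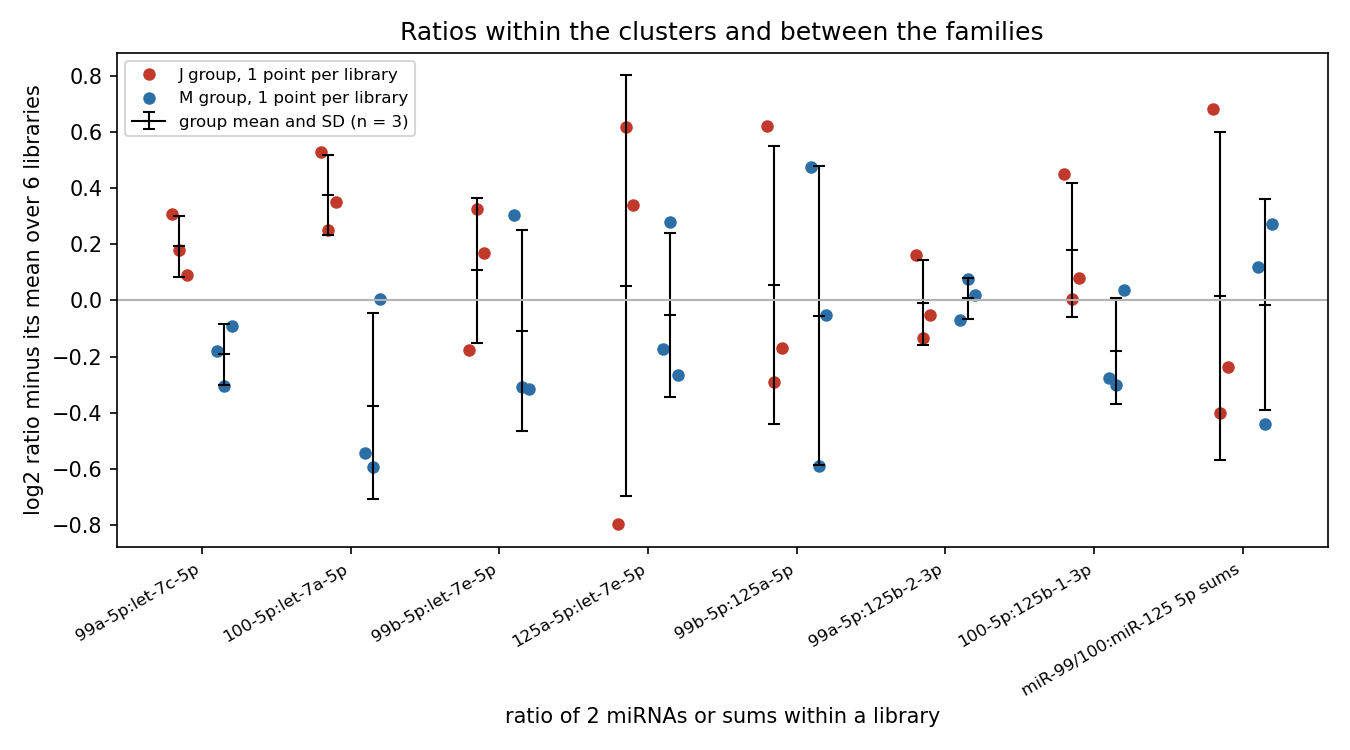
Log2 ratios within a library of cluster partners and of the family sums, each minus its mean over 6 libraries, with group means and SD (n = 3). The J points (red) lie wholly above the M points (blue) for miR-99a-5p to let-7c-5p and for miR-100-5p to let-7a-5p, and the groups overlap in the other 6 ratios shown.

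Likeness of profile was measured as the root mean square difference of centred log2(RPM + 1) over the 6 libraries, against 273 mouse miRNAs with a mean of at least 10 RPM. miR-99a-5p was most like miR-340-5p (0.08), miR-125b-2-3p from its own cluster (0.10) and miR-130a-3p (0.11). miR-100-5p, which differs from it by a single base, ranked 31st (0.16), while miR-99a-5p ranked 9th for miR-100-5p. The measure takes in the size of the deviations, so miRNAs that vary little lie close whether or not they move together. Both miR-99a-5p (1.18-fold) and miR-125b-2-3p (1.21-fold) varied little between libraries. miR-100-5p itself was nearest to miR-194-2-3p (0.12), miR-203-3p (0.13) and miR-1843a-5p (0.14), and miR-99b-5p to miR-511-3p (0.15), miR-21a-5p (0.15) and let-7f-2-3p (0.16). miR-125b-5p was nearest to miR-874-3p (0.14), miR-328-3p (0.17) and miR-1843a-3p (0.17), with miR-125a-5p at rank 6 (0.21). miR-125a-5p was nearest to miR-29b-3p (0.13), miR-26a-5p (0.14) and miR-874-3p (0.16), while its cluster neighbours let-7e-5p and miR-99b-5p ranked 159 (0.47) and 137 (0.42). With 6 libraries these values describe the samples at hand and carry no test.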

How the data were processed

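The authors prepared NEBNext small RNA libraries from total liver RNA, sequenced them on Illumina HiSeq, filtered the reads, and compared unique reads with Rfam and miRBase. The deposited values are RPM, for which the authors divided each miRNA's reads by the library total, 1 column per mouse. The submitters' processing notes name mm9; the aligner, the mismatch rule and the rule for reads matching several miRNAs are not given in the sources used here. All values were whole multiples of the RPM of 1 read (100% within 0.01 read), so whole reads were recovered.

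Groups came from the sample titles. Every miRNA averaging above 1 RPM in either group was fitted with limma 3.58.1 (R 4.3.3, lmFit, eBayes with trend, two-sided) on log2(RPM + 1), with Benjamini-Hochberg adjustment over all 548. The study's methods name no test for its sequencing data. Sums and ratios were compared by exact permutation over the 10 splits. Alternatives were 0.1 or 10 RPM added, other filters and scalings, whole-read fits by edgeR 4.0.16 (45 calls over all miRNAs) and by DESeq2 1.42.0, a replicate block and each library left out. Fits were tested on simulated data. Python 3.11.15, numpy 2.4.6, pandas 2.3.3, scipy 1.17.1 and matplotlib 3.10.9 were used. Positions are those of GENCODE M21 (GRCm38). The named miRNAs were the 9 members, a list of 11 partners (8 measured, 7 tested), the 3 nearest profiles of each 5p arm, and cell type marker miRNAs where a result touches them. Of the partners, mmu-miR-100-3p, mmu-let-7a-1-3p and mmu-let-7a-2-3p were not analysed here. The members and lists were chosen with earlier results of these data known.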

Additional observations from a re-analysis of the deposited data

How the results depend on the processing

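The number of the 9 miRNAs past the thresholds was 0 in all 16 alternatives (6 of the 9 were tested with a filter at 10 RPM). The count over all miRNAs, 29, rose to 45 with edgeR and was 21 to 45 with a library left out, the highest without M group replicate 2. Over all miRNAs the median log2 fold change moved from -0.13 to -0.04 with median-of-ratios scaling and 0.08 with quantile normalization. With quantile normalization the values were -0.077 for miR-99a-5p, 0.27 for miR-125a-5p, 0.088 for let-7e-5p, 0.29 for let-7c-2-3p, 0.0076 for miR-351-5p and -0.018 for the summed miR-99/100 5p arms, and for the ratios -0.047 (miR-99b-5p to miR-125a-5p), -0.0061 (miR-99a-5p to let-7c-5p), 0.0052 (miR-99b arms), 0.029 (miR-125b arms) and -0.35 (miR-99/100 to miR-125). Among values that kept their sign, it moved miR-125b-5p from 0.05 to 0.35, miR-125b-2-3p from 0.06 to 0.33 and miR-99b-5p from 0.07 to 0.22. The summed miR-125 5p arms moved from 0.033 to 0.33. Median-of-ratios scaling gave 0.072 for miR-125a-5p and 0.087 for let-7c-2-3p. edgeR gave 0.053 for miR-125a-5p, 0.040 for let-7e-5p and 0.084 for let-7c-2-3p, and DESeq2 0.057, 0.038 and 0.091. Leaving out miR-122-5p gave -0.0029 for the summed miR-125 5p arms. The ratio of the miR-99b arms was 0.0043 with 0.1 RPM added and 0.018 with 10 RPM. The cause was not tested.

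With a library left out, these log2 differences crossed 0: miR-99a-5p (-0.0012 to 0.10), miR-99b-5p (-0.015 to 0.22), miR-99b-3p (-0.16 to 0.49), miR-125a-5p (-0.20 to 0.17), miR-125b-5p (-0.19 to 0.35), miR-125b-2-3p (-0.0032 to 0.11), let-7e-5p (-0.36 to 0.10), let-7c-2-3p (-0.093 to 0.064) and the summed miR-125 5p arms (-0.16 to 0.31). So did the ratios of miR-99a-5p to miR-99b-5p (-0.22 to 0.081) and to miR-125b-2-3p (-0.10 to 0.046), of miR-125b-5p to miR-125a-5p (-0.11 to 0.19), of miR-99b-5p to miR-125a-5p (-0.17 to 0.37), of miR-125a-5p to let-7e-5p (-0.18 to 0.53), of the miR-99b arms (-0.28 to 0.16), of the miR-125b arms (-0.18 to 0.25) and of the family sums (-0.30 to 0.24). The ratios to let-7c-5p (0.33 to 0.44) and let-7a-5p (0.65 to 0.94) stayed above 0.

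The replicate numbers are not known to pair the mice, and deviations of same-numbered libraries correlated at 0.045, 0.058 and -0.0059. With a replicate block 27 of all miRNAs and 0 of the 9 were past the thresholds, and the ratios to let-7c-5p and let-7a-5p had p = 0.25 by an exact sign-flip permutation, the smallest that 3 pairs allow. Among the 9 miRNAs, depth limits the 3p arms other than miR-125b-2-3p, which rest on 7 to 30 reads.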

Other observations

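The third miRNA with the miR-125 seed, miR-351-5p, held 4.05% to 6.40% of the reads that carry CCCUGAG. It had 106, 143.2 and 132 RPM in J mice and 152, 191 and 119.9 RPM in M mice, which overlapped (log2 fold change -0.26, 95% interval -0.86 to 0.34, adjusted p = 0.76 by limma). The 3p arm of miR-99a, made from the same hairpin as the most abundant miRNA of the families, had 18.9 to 23.2 RPM in J mice and 16.4 to 23.5 RPM in M mice.

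Of the let-7 3p arms in the clusters, let-7e-3p had 5, 11 and 11 reads in J mice and 6, 3 and 5 in M mice (log2 fold change 0.56, 95% interval -0.45 to 1.58). On so few reads the value ran from 0.32 to 0.92 with a library left out. It was 0.15 with 10 RPM added, 0.99 by edgeR and 1.02 by DESeq2. let-7e-5p had 337, 177 and 256 RPM in J mice against 251, 278 and 293 RPM in M mice. J group replicate 2 was the lowest library for let-7e-5p and among the highest for its 3p arm. let-7c-1-3p, the 3p arm of the chromosome 16 let-7 gene, had 1 to 4 reads per library, and let-7c-2-3p, from the other let-7c gene on chromosome 15, had 288 to 468. let-7c-2-3p has the same sequence as the 3p arm of Mirlet7a-1, so its reads do not show which gene they came from. The J and M libraries of let-7c-2-3p overlapped (log2 fold change -0.02), where those of let-7c-5p did not.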
